A study of Mus musculus with 6 samples.

Results

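The Sox genes encode transcription factors that bind DNA through a high mobility group (HMG) box. The 9 genes described here are Sox9 and 8 of its paralogs, in 3 subfamilies of 3. Sox9, Sox8 and Sox10 form SoxE, Sox4, Sox11 and Sox12 form SoxC, and Sox5, Sox6 and Sox13 form SoxD. They were taken by gene name from a table of 30315 genes, which lists 15 Sox genes in all. In the siSox9 libraries Sox9 was at 34.2% of its level in the siNC libraries, and none of the 8 paralogs was past the threshold in the other direction in the limma test used here. Sox11 and Sox12 were lower with siSox9, and Sox13 was slightly higher in every siSox9 library but passed under some scalings and filters only. The summed level of the 8 paralogs was 73.9 ± 6.25 FPKM with siSox9 and 73.0 ± 5.42 FPKM with siNC (SD, n = 3 each), and the libraries of the groups overlapped.

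The data are RNA-Seq of primary renal tubular epithelial cells (TECs) of C57BL/6 mice, cells cultured straight from the kidney rather than an established line. The cells were transfected with a small interfering RNA (siRNA), either siSox9 against Sox9 or the negative control siNC, 12 h before hypoxia/reoxygenation (H/R). H/R mimics ischemia and reperfusion in culture. Both groups were kept in 1% O2 without glucose for 6 h and then returned to complete medium and normal oxygen for 18 h. There were 3 libraries per group, and no library without H/R or without an siRNA was analysed here. The labels do not say whether the libraries came from separate mice or cultures, so p-values measure the spread between these libraries, which may be technical. The question addressed is whether the loss of Sox9 was accompanied by a rise of its paralogs.

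SOX9 directs the fate of chondrocytes and of testis Sertoli cells, and in the injured kidney it marks tubular cells that take part in repair. SoxE proteins bind as monomers or dimers and activate transcription. Sox8 is often expressed beside Sox9, and Sox10 acts mainly in neural crest and glia. SoxC proteins are activators of progenitor cells and of the developing kidney. SoxD proteins lack an activation domain of their own and dimerise through a coiled coil. Sox5 and Sox6 act with SOX9 in cartilage.

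The HMG box is what the 9 genes share. Whether the siRNA or the reads match more than 1 of them there was not tested. The same 60 coding bases at the start of the HMG box are shown 5′ to 3′ for each gene, read from the GENCODE M21 transcripts, with capitals at bases that differ from Sox9.
Sox9: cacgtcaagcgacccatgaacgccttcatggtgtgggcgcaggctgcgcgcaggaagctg
Sox8: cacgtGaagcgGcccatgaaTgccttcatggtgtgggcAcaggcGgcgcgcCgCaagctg
Sox10: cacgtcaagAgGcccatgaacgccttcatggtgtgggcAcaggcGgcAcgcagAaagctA
Sox4: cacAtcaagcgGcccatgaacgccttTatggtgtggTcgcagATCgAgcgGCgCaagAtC
Sox11: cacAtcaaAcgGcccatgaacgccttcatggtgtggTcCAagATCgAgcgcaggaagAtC
Sox12: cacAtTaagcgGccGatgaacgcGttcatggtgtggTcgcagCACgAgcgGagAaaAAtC
Sox5: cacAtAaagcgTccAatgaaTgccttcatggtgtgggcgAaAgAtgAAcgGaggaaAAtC
Sox6: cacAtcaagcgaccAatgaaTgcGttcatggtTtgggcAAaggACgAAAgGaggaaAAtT
Sox13: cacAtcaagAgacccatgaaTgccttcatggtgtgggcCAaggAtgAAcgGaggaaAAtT
In GRCm38 these windows are at chr11:112782894-112782953 on the + strand for Sox9, and on the - strand at chr17:25570172-25570231 for Sox8 and chr15:79163351-79163410 for Sox10. Those of SoxC are on the - strand at chr13:28952791-28952850 for Sox4, chr12:27342208-27342267 for Sox11 and chr2:152397525-152397584 for Sox12. Those of SoxD are on the - strand at chr6:143841223-143841282 for Sox5, chr7:115489712-115489771 for Sox6 and chr1:133385515-133385574 for Sox13. Each window lies within 1 coding exon, the only exon of the 3 SoxC genes, exon 1 of 3 in Sox9 and Sox8, exon 3 of 5 in Sox10, and exon 13 of 15, 15 of 17 and 12 of 14 in the transcripts of Sox5, Sox6 and Sox13.

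Sox8 and Sox10 each shared 53 of the 60 bases with Sox9, and the other 6 genes shared 44 to 48. Over whole transcripts, the longest run of bases identical to the Sox9 transcript was 44 in Sox10, 24 in Sox11, 23 in Sox8 and 20 in Sox4. It was 19 in Sox12, 18 in Sox5, 17 in Sox13 and 12 in Sox6. How reads that match several genes were counted is not given in the sources used here. Sox10, with the longest run, held 0 or 1 read per library, beside 896 to 2649 recovered reads for Sox9. The part of shared reads in small shifts of the paralogs was not tested.

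Values are FPKM, reads scaled to transcript length and to the mapped reads of the library, so levels may be compared between genes. Reads per gene were also recovered from the FPKM and exon lengths. The libraries held 23893197 to 25725742 such reads, and 3 reads, the limit that a count of 0 allows, equal 0.117 to 0.126 FPKM for a transcript of 1 kb. Differences were tested with limma on log2(FPKM + 1) over the 12009 genes that averaged 1 FPKM or more, and called at a Benjamini-Hochberg adjusted p under 0.05. Fold changes are siSox9 over siNC on that scale, which understates the change of low genes. Of all genes tested, 30.4% were called, 17.6% lower and 12.8% higher with siSox9. After median-centring of the log2 values, 1959 genes rose and 1765 fell, against 1532 and 2118 as deposited, so the split by direction depended on the scaling. The cytokeratin of simple epithelia Krt8 was at 2123 and 2089 FPKM in mean with siSox9 and siNC, and Krt18 at 1254 and 1194 FPKM. The 8 tubule epithelium markers summed to 3814 to 3969 FPKM with siSox9 and 3652 to 3852 FPKM with siNC, most of it these 2 keratins. Of the 8, 0 were called lower and 1 higher, Cdh16 at 130 and 101 FPKM in mean (adjusted p = 0.0003 in limma). The 5 proximal tubule markers summed to only 2.97 to 3.31 and 2.68 to 3.15 FPKM, with 2 of the 5, Slc34a1 and Slc5a2, below 0.1 FPKM in mean, and the distal nephron and collecting duct markers to at most 0.158 FPKM.

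Among the 9 Sox genes, 6 passed the filter and 3 of these were called, all lower with siSox9 and Sox9 itself among them. The groups did not overlap in 4 of these 6, against 46.3% of all genes tested. Sox10, Sox5 and Sox6 were below the filter. An exact permutation test of 3 libraries against 3 cannot give a p below 0.1, and each of the 9 genes whose groups did not overlap was at that value.

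**Figure D1:**
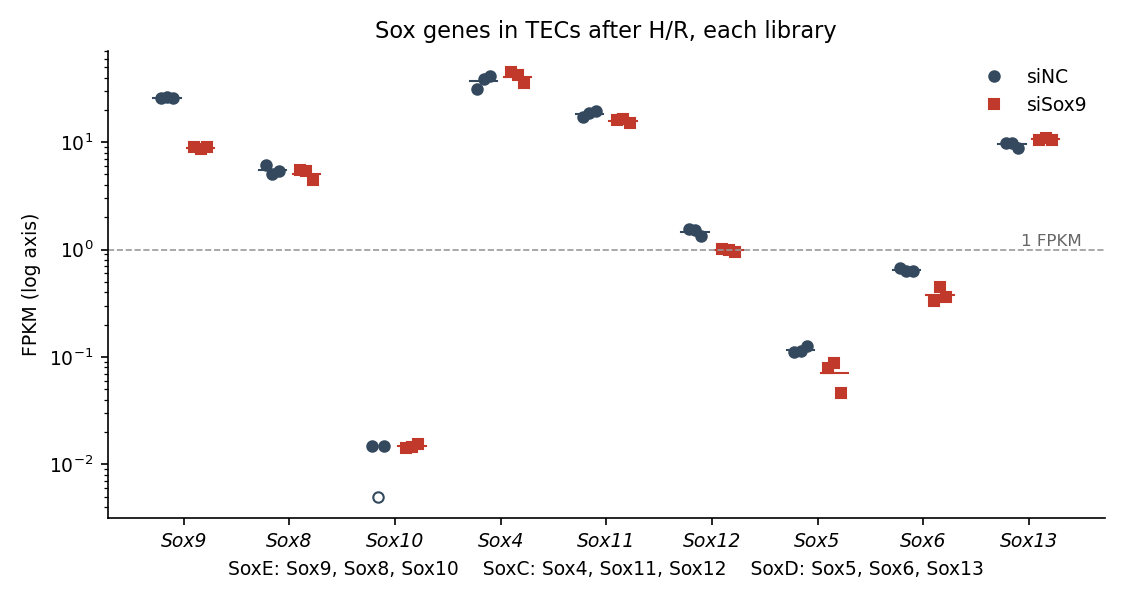
Level of each Sox gene in FPKM (log axis) in every library, siNC as circles and siSox9 as squares, with the group mean as a line and the filter of 1 FPKM dashed; the open circle is the siNC library in which Sox10 was at 0, drawn at the foot of the axis. Sox9 stands apart at about 26.0 against 8.87 FPKM, while the points of Sox4 and Sox8 overlap.

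Sox9 (ENSMUSG00000000567, chr11:112782224-112787760 on the + strand), the target of the siRNA, was at 8.93, 8.61 and 9.07 FPKM in the siSox9 libraries and at 25.7, 26.5 and 25.6 FPKM in the siNC libraries. These values stand for 950, 904 and 896 recovered reads in the siSox9 group, against 2641, 2649 and 2633 in the siNC group. Every siSox9 library was below every siNC library, with a gap far wider than the spread within either group. The log2 fold change was -1.45 ± 0.03 (SE; 95% confidence interval -1.53 to -1.37), with an adjusted p of 7.029e-06 in limma. Of the 12009 genes tested, 0 fell by more and 1 had a larger absolute change. On recovered reads with limma voom, Sox9 was at 34.7% of siNC (95% confidence interval 32.2% to 37.4%). In RNA of whole cultures, fewer cells that express a gene and less RNA per cell cannot be told apart, here and for the genes that follow.

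Sox8, the SoxE paralog expressed in these cells, was at 5.45, 5.41 and 4.44 FPKM with siSox9 and at 6.11, 5.01 and 5.42 FPKM with siNC. The groups overlapped. The lowest value was siSox9 replicate 3 and the highest siNC replicate 1. The log2 fold change was -0.10 (95% confidence interval -0.30 to 0.11; adjusted p = 0.444 in limma). It was -0.02 without siSox9 replicate 3, -0.03 without siNC replicate 1 and -0.15 without siNC replicate 2, and was called in none of these. On recovered reads it was at 94.1% of siNC, with an interval from 81.9% to 108%, so a rise of Sox8 by more than that upper limit lies outside the interval of these libraries. The difference of the means, siSox9 minus siNC, was -0.414 FPKM for Sox8 and -17.1 FPKM for Sox9.

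Sox10 was not detectable as a difference at this depth. It was listed at 0.0143, 0.0145 and 0.0154 FPKM with siSox9 and at 0.0148, 0 and 0.0148 FPKM with siNC. With the length of its 2713-base transcript these values are 1 read in each library and 0 in siNC replicate 2, under the limit of 3 reads, so no fold is given. The 5 Schwann and neural crest markers summed to 11.2 to 12.0 FPKM with siSox9 and 11.0 to 11.3 FPKM with siNC, most of it Mbp at 11.0 and 10.6 FPKM in mean.

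The 3 SoxE genes together were at 14.4, 14.0 and 13.5 FPKM with siSox9 and at 31.8, 31.5 and 31.1 FPKM with siNC. Sox9 made up 82.5% ± 1.68 of this sum with siNC and 63.5% ± 3.10 with siSox9 (SD, n = 3). Sox9 thus remained the most abundant SoxE transcript in every siSox9 library.

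Sox4, an activator of progenitor cells and the most abundant of the 9 genes, was at 45.0, 41.9 and 35.5 FPKM with siSox9 and at 31.3, 38.7 and 41.6 FPKM with siNC. The groups overlapped, and the replicates of each group were further apart than the group means. The log2 fold change was 0.13 (95% confidence interval -0.14 to 0.41; adjusted p = 0.433 in limma). It was 0.02 without siNC replicate 1 and 0.23 without siSox9 replicate 3, and was called in neither. In FPKM the difference of the means was 3.62, less than the SD of 4.85 with siSox9 and 5.30 with siNC.

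Sox11, which acts beside Sox4 in progenitors, was at 16.1, 16.4 and 15.1 FPKM with siSox9 and at 17.3, 18.9 and 19.4 FPKM with siNC. All siSox9 libraries were below all siNC libraries, although siSox9 replicate 2 and siNC replicate 1 were close. Sox11 fell, with a log2 fold change of -0.21 ± 0.05 (SE; 95% confidence interval -0.33 to -0.08; adjusted p = 0.0228 in limma). Of all genes tested, 24.6% changed by at least as much in either direction. The call was lost without siNC replicate 2 (-0.19, adjusted p = 0.0688), siNC replicate 3 (-0.17, adjusted p = 0.0745), siSox9 replicate 1 (-0.22, adjusted p = 0.0535) or siSox9 replicate 3 (-0.17, adjusted p = 0.0670) in limma, with the same direction each time.

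Sox12, the SoxC member known as the weakest activator, was at 1.02, 0.999 and 0.949 FPKM with siSox9 and at 1.56, 1.52 and 1.33 FPKM with siNC. These are 117, 113 and 101 reads against 173, 163 and 147 reads. The groups were apart, with an SD of 0.0369 FPKM with siSox9 and 0.125 FPKM with siNC. Sox12 fell, with a log2 fold change of -0.31 ± 0.07 (SE; adjusted p = 0.0143 in limma), which 12.4% of all genes tested reached in either direction. Since its level is near the pseudocount of 1, the change was larger on recovered reads, at 68.8% of siNC (95% confidence interval 56.4% to 83.8%). It was called in every alternative run, with an adjusted p of 0.00269 to 0.0479.

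The SoxC genes summed to 57.7 ± 5.51 FPKM with siSox9 and 57.2 ± 6.29 FPKM with siNC (SD, n = 3), a sum set mostly by Sox4, and the groups overlapped.

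Sox13, a SoxD protein known to modulate TCF factors of the Wnt pathway, was at 10.5, 11.0 and 10.4 FPKM with siSox9 and at 9.84, 9.85 and 8.85 FPKM with siNC. It was the only one of the 9 genes with every siSox9 library above every siNC library. The log2 fold change of 0.15 ± 0.05 (SE; 95% confidence interval 0.03 to 0.26) did not pass the threshold, with an adjusted p of 0.0603 in limma, and 38.0% of all genes tested changed by at least as much. Sox13 did pass with median-centred values (0.17, adjusted p = 0.0350), quantile-normalized values (0.16, adjusted p = 0.0429), a minimum of 5 FPKM (adjusted p = 0.0493) and limma voom on recovered reads (0.17, adjusted p = 0.0214). The limma voom fit without a filter gave 114% of siNC (95% confidence interval 104% to 124%; adjusted p = 0.0454). It did not pass after rescaling to the same sum per library (0.17, adjusted p = 0.115 in limma) or without a filter (adjusted p = 0.136). Sox13 also missed the threshold whichever library was left out (0.10 to 0.17, adjusted p = 0.0545 to 0.176 in limma). The same held in limma with the replicate block (adjusted p = 0.0508), a pseudocount of 0.1 (0.0608) and no intensity trend (0.0747). Whether Sox13 counts as higher therefore depends on the scaling, the filter, the fit and the libraries kept. In FPKM it was 1.11 higher, beside a fall of 17.1 for Sox9.

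Sox6, a partner of SOX9 in cartilage, was at 0.330, 0.446 and 0.361 FPKM with siSox9 and at 0.671, 0.625 and 0.629 FPKM with siNC. It was below the filter, but its long transcript gave 126, 168 and 128 reads in the siSox9 group, and 247, 224 and 232 reads in the siNC group. Every siSox9 library was well below every siNC library. In limma without a filter, which called 9.60% of 28122 genes, its log2 fold change was -0.25 ± 0.05 (SE; adjusted p = 0.0403). In limma voom on recovered reads without a filter, which called 13.6% of 25757 genes, it was -0.75 (95% confidence interval -1.01 to -0.48; adjusted p = 0.0002), or 59.6% of siNC. The call on log2(FPKM + 1) was lost under 4 other ways of scaling the values, under the replicate block and without any 1 library, with adjusted p of 0.0525 to 0.131 in limma, and the direction was the same in each.

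Sox5, the close relative of Sox6, was at 0.0784, 0.0877 and 0.0466 FPKM with siSox9 and at 0.112, 0.112 and 0.126 FPKM with siNC. These are 29, 32 and 16 reads against 40, 39 and 45 reads. The groups did not overlap, but Sox5 was not called in any fit. Its log2 fold change on recovered reads was -0.72 (95% confidence interval -1.30 to -0.15; adjusted p = 0.0970 in limma voom).

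The SoxD genes summed to 11.1 ± 0.399 FPKM with siSox9 and 10.3 ± 0.582 FPKM with siNC (SD, n = 3), without overlap, and Sox13 made up nearly all of it. Sox13 thus differed in direction from Sox5 and Sox6 in the means. The limma voom fit without a filter holds 8 of the 9 genes and called 13.6% of all 25757 genes, those below 1 FPKM included. In that fit 4 Sox genes were called lower (Sox9, Sox11, Sox12 and Sox6) and 1 higher (Sox13).

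**Figure D2:**
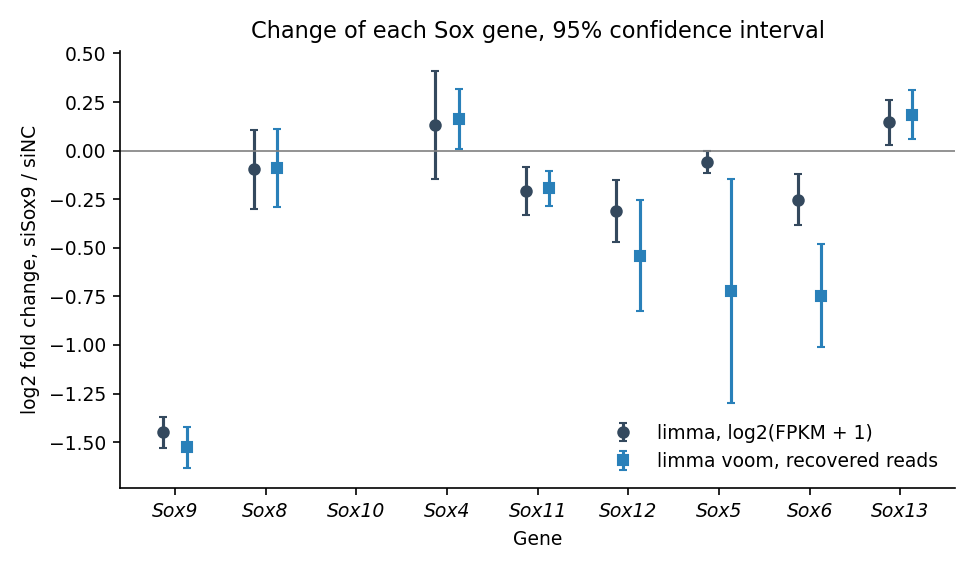
Log2 fold change of each Sox gene, siSox9 over siNC, with its 95% confidence interval, by limma on log2(FPKM + 1) (circles, without a filter for Sox5 and Sox6) and by limma voom on recovered reads (squares), with Sox10 left out because it was under the limit of 3 reads. Sox9 lies at -1.45 and -1.53, the 3 low genes Sox12, Sox5 and Sox6 lie further from 0 on recovered reads, and Sox13 lies above 0 by both.

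**Figure D3:**
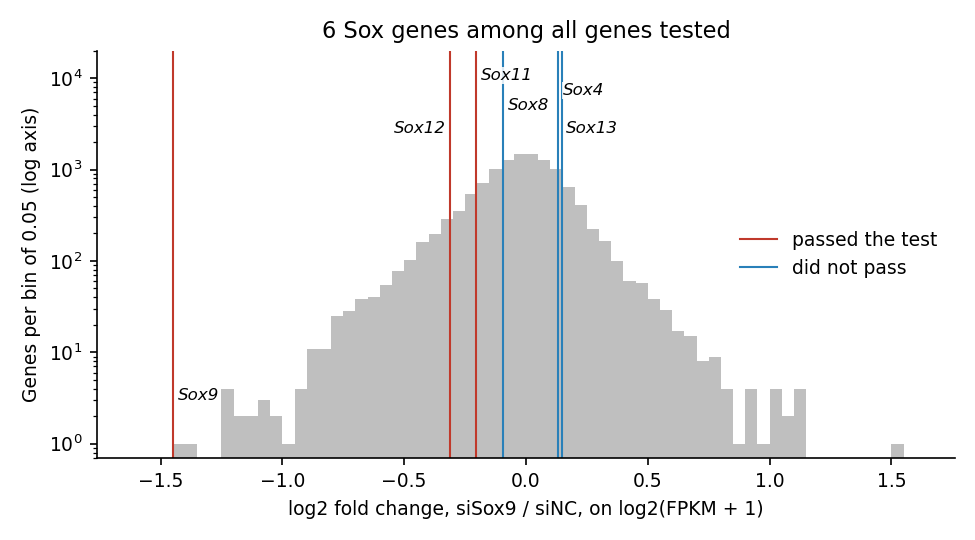
Number of genes (log axis) per bin of log2 fold change for the 12009 genes tested, with the 6 tested Sox genes as lines, red where they passed the test and blue where they did not. Sox9 is at the left end at -1.45, and the other 5 lie within the body of the distribution.

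The order of the levels changed for Sox9 and, through it, for Sox11 and Sox13. With siNC it ran from Sox4 through Sox9, Sox11, Sox13, Sox8, Sox12, Sox6 and Sox5 to Sox10. With siSox9 it ran from Sox4 through Sox11, Sox13, Sox9, Sox8, Sox12, Sox6 and Sox5 to Sox10. In both groups the lowest library of each gene was above the highest library of the next. The closest neighbours, by the ratio of these libraries, were Sox13 and Sox9 with siSox9, at 10.4 FPKM for the lowest and 9.07 FPKM for the highest library.

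All 9 genes summed to 87.5, 84.9 and 75.9 FPKM with siSox9 and to 92.7, 101 and 103 FPKM with siNC. The groups did not overlap and the means differed by 16.2 FPKM, of which the fall of Sox9 by 17.1 FPKM is more than the whole. The 8 paralogs without Sox9 were at 78.6, 76.3 and 66.8 FPKM with siSox9 and at 66.9, 74.7 and 77.4 FPKM with siNC, and their means differed by 0.919 FPKM. Sox9 made up 26.3% ± 1.44 of the sum with siNC and 10.8% ± 1.03 with siSox9 (SD, n = 3). The summed transcript of the paralogs thus did not differ beyond the spread of the libraries, which leaves room for a change of several FPKM in either direction.

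**Figure D4:**
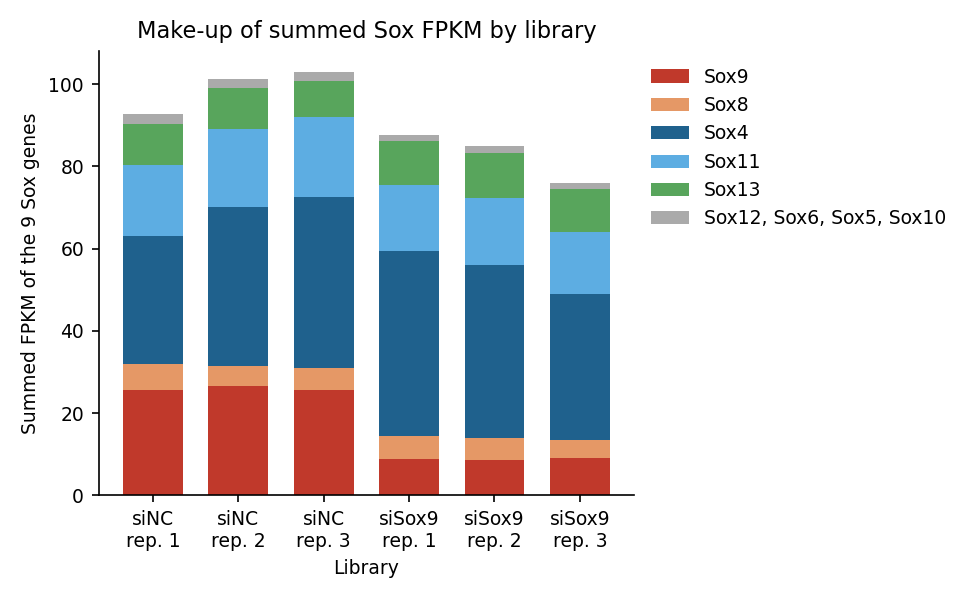
FPKM of the Sox genes stacked by library, from 0. The Sox9 part shrinks from about 26.0 to 8.87 FPKM, while the paralogs together vary between 66.8 and 78.6 FPKM over all libraries without a split by group.

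The other 6 Sox genes listed, of further subfamilies, were all below 1 FPKM and none was called. Sox17, which acts in endoderm and endothelium, was at 0.372 and 0.394 FPKM in mean with siSox9 and siNC, Sox15 at 0.251 and 0.266 FPKM, and Sox21 at 0.180 and 0.161 FPKM. Sox7, also of endothelium, was at 0.162 and 0.250 FPKM with groups that overlapped. Sox18, the other endothelial member, was at 0.0480, 0.0729 and 0.155 FPKM with siSox9 and at 0.224, 0.230 and 0.224 FPKM with siNC, or 2, 3 and 6 reads against 9 in each library. Its groups did not overlap, and it was not called without a filter (adjusted p = 0.0618 in limma and 0.133 in limma voom). It passed in limma at an adjusted p of 0.0251 without siSox9 replicate 3, the highest siSox9 library. The 5 endothelium markers summed to 2.91 to 3.10 FPKM with siSox9 and 3.22 to 4.12 FPKM with siNC, but did not move together. In mean, Kdr (0.509 against 0.418 FPKM) and Tek (0.122 against 0.0889 FPKM) were higher with siSox9, and the others were lower. The part of endothelial cells in the difference of Sox18 was not tested. Sox1, Sox2, Sox3, Sox14 and Sry are not among the genes listed and so were not analysed here.

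Of 14 genes whose products bind or modify SOX9, 13 were tested. Of these, 2 were lower, 1 was higher, and the median log2 fold change was -0.02, against -0.01 over all genes tested. The 23.1% called did not exceed the 30.4% called over all genes. Prkaca, the catalytic subunit of protein kinase A that phosphorylates SOX9, fell from 30.2 to 26.7 FPKM (-0.17, adjusted p = 0.0309 in limma). Ctnnb1, which encodes β-catenin, rose from 104 to 115 FPKM (0.14, adjusted p = 0.0112 in limma). Wwp2, a ubiquitin ligase partner of SOX9, was at 6.998 and 6.37 FPKM with siSox9 and siNC (0.12, adjusted p = 0.0652 in limma), and passed with median-centred values (0.14, adjusted p = 0.0371), quantile-normalized values (0.15, adjusted p = 0.0390) and limma voom with and without a filter (adjusted p = 0.0231 and 0.0478). The call of Prkaca was lost without siNC replicate 1 or 3 and without siSox9 replicate 2 or 3 (-0.16, -0.14, -0.16 and -0.15), after rescaling to the same sum per library (-0.14, adjusted p = 0.138 in limma) and without a filter (adjusted p = 0.0805), and that of Ctnnb1 without siSox9 replicate 2 (0.14, adjusted p = 0.0532 in limma). The coactivators Crebbp, Ep300, Med12, Med25, Kat5 and Carm1 were between -0.08 and 0.02, and none was called.

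Of 11 genes placed upstream of Sox9, in tubular cells or elsewhere, 8 were tested. Of these, 3 were lower and 1 was higher, with a median of -0.09, beside 17.6% lower and 12.8% higher over all genes tested. Egr1, an immediate early transcription factor, rose from 4.65 ± 0.364 to 9.73 ± 0.721 FPKM (SD, n = 3; 0.92, adjusted p = 0.0002 in limma). Rbpj, the DNA-binding partner of Notch, fell from 8.80 to 7.09 FPKM (-0.28, adjusted p = 0.0061 in limma), the receptor Notch2 from 16.4 to 14.3 FPKM (-0.18, adjusted p = 0.0094), and Wwtr1, which encodes TAZ, from 36.4 to 32.7 FPKM (-0.15, adjusted p = 0.0194). The call of Wwtr1 was lost without siSox9 replicate 1 (-0.15, adjusted p = 0.0594), replicate 2 (-0.15, adjusted p = 0.0626) or replicate 3 (-0.15, adjusted p = 0.0550) in limma, and those of Wwtr1 and Notch2 when FPKM were rescaled to the same sum per library (-0.12 and -0.16).

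Of 17 cartilage and testis genes that SOX9 activates, 1 was tested, 16 were below the filter and 2 of these, Col9a1 and Hapln1, were at 0 in every library. The one tested, Col27a1, a fibrillar collagen, rose from 5.35 ± 0.476 to 8.20 ± 0.340 FPKM (SD, n = 3; 0.54, adjusted p = 0.0009 in limma). Col2a1, the collagen of cartilage, was at 0.153 ± 0.0153 FPKM with siSox9 and 0.327 ± 0.0220 FPKM with siNC, and passed without a filter (-0.20, adjusted p = 0.0149 in limma). The 4 chondrocyte markers, Col2a1 again among them, summed to 0.230 to 0.333 FPKM with siSox9 and 0.467 to 0.502 FPKM with siNC. For each of the others the groups overlapped. Of 2 genes known as SoxC targets, Tubb3, a neuronal tubulin, fell from 2.86 to 2.21 FPKM (-0.27, adjusted p = 0.0091 in limma, and 0.122 in limma voom without a filter), and Tead2, a partner of YAP, was at 16.8 and 17.1 FPKM with siSox9 and siNC and was not called.

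The genes whose pattern over the 6 libraries was nearest to Sox9 were found by the root mean square difference of log2(FPKM + 1), each gene taken relative to its siNC mean. No gene came within 0.1. Nearest were Gm7931 (0.123), Cnn1 (0.162), Clca3b (0.196), Rrm2 (0.257) and Gm5152 (0.300). Cnn1, which encodes a calponin of contractile cells, was at 25.0, 23.9 and 24.7 FPKM with siSox9 and at 59.6, 59.1 and 57.2 FPKM with siNC. Rrm2, a subunit of ribonucleotide reductase, was at 23.1, 20.96 and 24.0 FPKM with siSox9 and at 47.9, 48.9 and 51.6 FPKM with siNC. Gm7931, which GENCODE M21 annotates as a processed pseudogene, rested on 5 to 8 reads with siSox9 and 26 to 29 with siNC. The patterns of Sox11 and Sox12 were common, since 1688 genes lay within 0.1 of Sox11, the nearest being Irf2bp1, Pik3c2b and Kitl, and 1015 lay within 0.1 of Sox12, the nearest being Ogfrl1, Lbh and Dlg4.

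Promoters, taken as 250 bases before to 50 bases after a RefSeq start in GRCm38.p6, were read for 7 of the 9 genes (12 starts), those other than Sox9 and Sox10. Letters known from SOX binding, ACAAAG and AACAAT, were searched on both strands. ACAAAG was in 18.7% and AACAAT in 10.7% of 32851 such promoters. Of the 6 starts of Sox6, 5 held ACAAAG and 1 held AACAAT, while the 6 promoters of the other genes held neither. Starts of 1 gene are not independent. Sox11 and Sox12, which were lower with siSox9 as Sox6 was, are among the genes whose promoters held neither. The promoter of the most upstream Sox6 start, at chr7:116038695-116038994 on the - strand, is shown with its match at base -113 in capitals.
Sox6: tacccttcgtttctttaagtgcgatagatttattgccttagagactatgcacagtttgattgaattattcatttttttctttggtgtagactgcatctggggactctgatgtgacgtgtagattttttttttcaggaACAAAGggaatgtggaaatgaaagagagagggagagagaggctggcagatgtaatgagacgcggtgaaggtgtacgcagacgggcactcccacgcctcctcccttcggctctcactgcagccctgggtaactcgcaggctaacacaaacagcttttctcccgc
The match is a description of these letters and was not tested against the change of Sox6.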

How the data were processed

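The 6 libraries, 3 with siSox9 and 3 with siNC, were grouped by the siRNA in the labels, and RNA-Seq of each was analysed. For every gene the authors deposited an FPKM value in each library. The columns taken as siSox9 are named for an siRNA that is not siNC, and the labels name no siRNA besides siNC and siSox9. The submitters' processing notes name Bowtie2 2.2.3, HISAT2 2.1.0, TopHat2 and the build mm9 without saying what each was used for. Of the listed genes, 93.4% have the same position in GENCODE M21 (GRCm38), and the coordinates printed are in that build. The counter and the annotation are not given in the sources used here.

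Reads per gene were recovered from FPKM, the exon lengths of GENCODE M21 and the value of 1 read in each library, and 27946 genes were whole in all 6 libraries within 0.02 reads. The limit of 3 reads covers counting error only, and the confidence intervals come from the spread between the libraries. No 2 libraries agreed within sampling noise. Differences were tested on log2(FPKM + 1) with the lmFit and eBayes functions of limma (version 3.58.1, under R 4.3.3), with an intensity trend, 2-sided and with no replicate block. A mean of 1 FPKM over the libraries was required, and p-values were adjusted by Benjamini-Hochberg over all genes tested. Limma voom on recovered reads, other scalings, filters and a pseudocount, the replicate block and leaving out each library were alternatives. Scripts were tested on simulated data. Other steps used scipy 1.17.1, pandas 2.3.3, numpy 2.4.6, matplotlib 3.10.9 and Python 3.11.15.

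The Sox genes and all gene lists were chosen with earlier results of these data known. Named are every Sox gene of the 3 subfamilies, other Sox genes that averaged 0.1 FPKM or more, the 4 tested genes of each list with the smallest adjusted p, the 5 genes nearest to Sox9 and 3 nearest to each other Sox gene called, genes next to a Sox gene that passed, and the highest markers. The coactivators, Cdh16, Slc34a1, Slc5a2, Slc39a11, Col9a1, Hapln1, Pecam1, Kdr and Tek were named after their values were seen. A gene that the rule would name is not reported here. The siRNA sequences were not used here.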

Additional observations from a re-analysis of the deposited data

How the results depend on the processing

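Sox9 and Sox12 were called lower in every alternative run for them. In limma voom on recovered reads without a filter, 5 of 8 Sox genes passed, beside 13.6% of all 25757 genes. That share includes genes below 1 FPKM, so it is no like measure for Sox genes above it. With the filter, limma voom called 4 Sox genes, Sox9 among them, beside 3719 of 10477 genes. With limma 3 of 6 passed, beside 30.4% of all 12009 genes. When 1 library was left out, 2 to 3 Sox genes passed. The count over all genes was then 2431 to 3653, lowest without siSox9 replicate 2. Sox11 had -0.21 without a filter (adjusted p = 0.0659 in limma) and -0.25 to -0.17 with 1 library left out. Sox6 missed the threshold after rescaling to the same sum (-0.24), median-centring (-0.23), quantile normalization (-0.23), with a pseudocount of 0.1 (-0.64) and with 1 library left out (-0.29 to -0.23). Sox13 passed with median-centred values (0.17), quantile-normalized values (0.16), a minimum of 5 FPKM (0.15), and limma voom with (0.17) and without (0.18) a filter. It missed the threshold whichever library was left out (0.10 to 0.17). The fitted difference of Sox10, at 0 or 1 read per library and no measure of a fold, ranged from -0.000117 to 0.0105 with 1 library left out.

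The replicate numbers did not pair the libraries: deviations of same-numbered libraries from their group means correlated at 0.0649, -0.0504 and 0.00784. With the replicate block 3262 genes and 3 Sox genes passed, and Sox6 (-0.25, adjusted p = 0.131 in limma) did not. On simulated data this fit called unchanged genes above its nominal rate.

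Signs turned, without a call, for Tead2 (0.00913 rescaled to the same sum, 0.00813 median-centred, 0.00332 in limma voom without a filter, -0.0665 to 0.0371 with 1 library left out), Sox17 (0.00348 median-centred) and Sox15 (0.0123 median-centred, 0.00767 in limma voom, -0.114 to 0.073 with 1 library left out). The causes were not tested. For a transcript of 1 kb, values under 0.117 to 0.126 FPKM are within the limit that a count of 0 allows.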

Other observations

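The nearest protein-coding genes on each side of the 9 Sox genes were 18, of which 12 were tested; 2 were lower with siSox9 and 0 were higher, beside 17.6% lower and 12.8% higher over all genes tested. The 2 lower genes, Bcat1 and Etnk1, flank Sox5. Without a filter neither passed in limma on log2(FPKM + 1). Both passed in limma voom on recovered reads without a filter (adjusted p = 0.00255 for Bcat1 and 0.0376 for Etnk1). Bcat1, a branched-chain amino acid transaminase 212 kb after Sox5, was at 1.20, 1.42 and 1.31 FPKM with siSox9 and at 1.73, 2.21 and 1.69 FPKM with siNC (log2 fold change -0.31, adjusted p = 0.0325 in limma). Etnk1, an ethanolamine kinase 596 kb before Sox5, was at 7.24, 7.04 and 7.14 FPKM with siSox9 and at 7.95, 7.63 and 8.23 FPKM with siNC (-0.13, adjusted p = 0.0355 in limma). Slc39a11, the neighbour after Sox9, was at 12.5 and 11.7 FPKM in mean with siSox9 and siNC and was not called. The 5 listed genes that overlap a Sox gene, among them Gm26735 over Sox4, Sox5os3 and Sox5os4 over Sox5 and Sox6os over Sox6, held 0 to 4 reads per library.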
